A study of Mus musculus with 20 samples.

Results

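The genes described here are 10 genes of the unfolded protein response and the integrated stress response, chosen by symbol out of 47069 genes in the deposited count table. They are the transcription factors Atf4, Ddit3 (which encodes CHOP) and Xbp1, the ATF4 and CHOP targets Trib3, Asns and Chac1, the endoplasmic reticulum (ER) chaperones and co-chaperones Hspa5 (which encodes BiP), Dnajb9 and Sdf2l1, and the ER-associated degradation gene Herpud1. RNA was measured by paired-end sequencing of whole kidney from 20 mice of the strain 129SJ x C57Bl/6J at 15 weeks of age. The Col4a3−/− mouse is a model of Alport syndrome, in which the collagen IV network of the glomerular basement membrane fails. WT mice (n = 5) carried no mutation and received no treatment, so no injected control without the mutation was measured. Every other mouse was Col4a3−/− and was treated from 5 weeks of age: Veh mice (n = 6) received weekly subcutaneous PBS, anti-miR-21 mice (n = 6) received Lademirsen, an oligonucleotide inhibitor of microRNA-21, at 50 mg/kg in PBS by the same weekly route, and ACEi mice (n = 3) drank water with ramipril at 11 mg/L and, by the study's methods, were injected with PBS as the Veh mice were.

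The unfolded protein response is the programme that cells start when misfolded proteins build up in the ER. Its sensors are PERK, IRE1 and ATF6. PERK phosphorylates the translation factor eIF2alpha, which slows protein synthesis in general but favours translation of ATF4, while IRE1 splices the Xbp1 messenger and ATF6 is cleaved into an active factor, and these last arms induce ER chaperones and degradation genes. The integrated stress response shares the eIF2alpha and ATF4 step with other kinases that sense amino acid lack, haem lack or viral RNA. ATF4 protein is controlled largely by translation, and Xbp1 activity by splicing, and neither was measured by the gene counts used here.

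The promoters of these genes are shown because the 2 arms are read through different DNA elements. Each gene had 1 promoter window of 300 bases in the RefSeq table on GRCm38.p6, from 250 bases before to 50 after the start site. The ER stress response element ERSE was searched as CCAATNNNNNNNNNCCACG, ERSE-II as ATTGG and CCACG with 1 base between them, the CRE motif of the cAMP response element as TGACGT, the core of the unfolded protein response element as TGACGTGG (which contains the CRE motif) and the element bound by ATF and C/EBP factors as TGATGNAA, all on both strands. Capitals mark a match and up to 15 bases on either side are shown in lower case, 5′ to 3′ on the strand of the gene.

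Hspa5, chr2:34771918-34772058, plus strand, with the CRE motif and then ERSE: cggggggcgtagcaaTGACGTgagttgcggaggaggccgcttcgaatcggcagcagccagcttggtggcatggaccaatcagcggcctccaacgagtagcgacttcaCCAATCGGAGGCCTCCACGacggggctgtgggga
Herpud1, chr8:94386302-94386402, plus strand, with the ATF and C/EBP element and then ERSE-II: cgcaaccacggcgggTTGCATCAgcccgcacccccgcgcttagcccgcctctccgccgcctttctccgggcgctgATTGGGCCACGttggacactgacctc
Asns, chr6:7693210-7693247, minus strand, with the ATF and C/EBP element: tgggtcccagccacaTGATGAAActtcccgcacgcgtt
Chac1, chr2:119351034-119351071, plus strand, with the ATF and C/EBP element: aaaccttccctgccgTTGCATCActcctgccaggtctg
Trib3, chr2:152344024-152344061, minus strand, with the ATF and C/EBP element after the start site: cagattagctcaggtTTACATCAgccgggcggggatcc

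Among the 32851 promoter windows of the table, ERSE was found in 0.119%, ERSE-II in 0.0365%, the CRE motif in 7.51%, the core of the unfolded protein response element in 0.676% and the ATF and C/EBP element in 3.97%. Of the 10 genes, Hspa5 held ERSE at bases −65 to −47 from the start site and Herpud1 held ERSE-II at bases −52 to −42. The ATF and C/EBP element was held by 4 of the 10, Trib3, Chac1, Asns and Herpud1. No searched motif was matched in the windows of Ddit3, Atf4, Xbp1, Dnajb9 and Sdf2l1, which says only that these letters were not in these windows.

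The libraries held between 28474301 and 29479629 counts on genes, and 17622 genes were tested. Levels are given as CPM, the count of a gene relative to the size of its library after scaling by TMM, a method that takes most genes as unchanged between libraries. The TMM factors differed with the group, lying between 0.77 and 0.85 in WT mice but between 1.12 and 1.26 in Veh mice, so the scaling bears on small changes: with library totals alone, the median gene was 0.65 higher in Veh than in WT on the log2 scale, against 0.07 with TMM. The share of called genes that were higher moved from 53.4% with TMM to 81.2% in Veh vs WT, from 48.6% to 19.96% in anti-miR-21 vs Veh and from 52.4% to 20.5% in ACEi vs Veh. Col4a3 itself was at 194 to 238 CPM in WT and at 27.9 to 46.3 CPM in Veh. Kidney markers were present in all groups, although the extraction text in the labels names adipose tissue. In 4 libraries the summed level of 4 adipocyte markers stood apart, at 81.0 CPM in Veh A1, 113 CPM in Veh A4, 78.5 CPM in Veh A9 and 92.6 CPM in anti-miR-21 A12, against 0.36 to 19.7 CPM in the other 16 mice. Of these markers, Adipoq, Plin1 and Cidec were called higher in Veh than in WT and lower under ACEi than in Veh. Counts without these 4 libraries, which leaves 3 Veh and 5 anti-miR-21 mice, are given beside the results. In bulk kidney RNA, fewer cells of a type and less RNA per cell cannot be told apart.

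**Figure D1:**
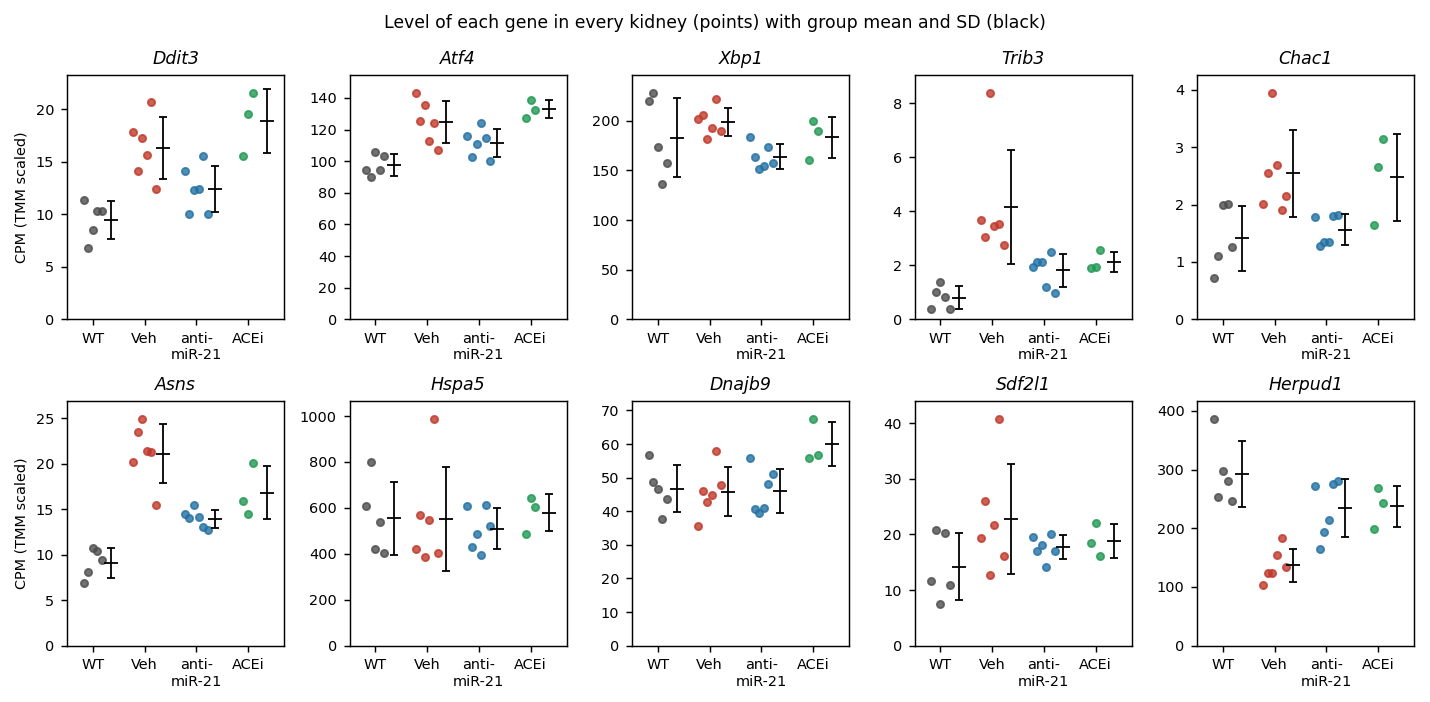
Level of each of the 10 genes in every kidney, in CPM on a linear axis from 0, by group (WT n = 5, Veh n = 6, anti-miR-21 n = 6, ACEi n = 3), with the group mean and SD in black. Asns, Trib3, Ddit3 and Atf4 were higher in every Veh mouse than in every WT mouse, Herpud1 was lower in every Veh mouse, and 1 Veh mouse stood apart for Hspa5 at 987 CPM.

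The comparison of Veh with WT asks what the Alport disease did to these genes by 15 weeks. The ATF4 and CHOP arm was higher in Veh: Trib3 5.13-fold, Asns 2.32-fold, Chac1 1.79-fold, Ddit3 1.72-fold and Atf4 1.28-fold. The ER chaperone Hspa5 and its co-chaperone Dnajb9 were not called, and neither was Xbp1, while Herpud1 was lower, at 0.469 of the WT level. In all, 6 of the 10 genes were called higher at an adjusted p under 0.05, where 39% of all genes tested were, and 1 was called lower, where 34% were. For 5 of the 10, no Veh value fell inside the WT range or the reverse, and 54.9% of all genes were likewise apart. The share called or apart among these genes is thus not far from that of the transcriptome, which differed widely between the groups. The median log2 fold change was 0.52 over the 10 genes and 0.07 over all genes tested. Without the 4 libraries high in adipocyte markers 5 of the 10 were higher and 1 lower, where 35.5% and 32.2% of all genes were, and Chac1 lost its call (log2 fold change 0.66, adjusted p = 0.062).

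Among the targets, Trib3 encodes a pseudokinase that binds AKT and is induced by ATF4 and CHOP together. Its level in the WT mice was 0.378, 0.401, 0.818, 1.03 and 1.39 CPM, and in Veh it ran from 2.76 to 8.40 (median 3.50) CPM. No Veh mouse reached down to the WT range. The highest Veh value was that of mouse A9. The log2 fold change was 2.36 (SE 0.36, adjusted p = 6.2e-06 by edgeR), and it was between 2.03 and 2.65 whichever mouse was left out. Trib3 rested on few reads, between 9 and 33 counts in WT.

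Asns encodes asparagine synthetase, the textbook amino acid response gene. WT mice stood at 6.86, 8.12, 9.40, 10.4 and 10.7 CPM and Veh mice at 15.5 to 24.9 (median 21.3) CPM. All Veh mice lay above all WT mice, and the log2 fold change of 1.21 (SE 0.13, adjusted p = 2.7e-08) had the lowest adjusted p among the 10 genes. Chac1 encodes an enzyme that degrades glutathione and is induced by ATF4. It was measured at 0.713, 1.11, 1.26, 1.99 and 2.003 CPM in WT and at 1.90 to 3.95 (median 2.35) CPM in Veh. The groups overlapped, since the 2 highest WT mice lay within the Veh range, and the log2 fold change was 0.84 (SE 0.26, adjusted p = 0.0062).

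Ddit3 encodes CHOP, the factor that links lasting ER stress to cell death. Its level was 6.77, 8.53, 10.3, 10.4 and 11.4 CPM in WT and 12.4 to 20.7 (median 16.4) CPM in Veh. The lowest Veh mouse lay just above the highest WT mouse, and the log2 fold change was 0.79 (SE 0.15, adjusted p = 1e-04). Ddit3 shares 105 exon bases with a second protein-coding entry of the same name on the same strand, for which no counts were given. It also shares 68 exon bases with Mars, a tRNA synthetase gene on the opposite strand with a median of 1539.5 counts. Whether the counting used strand is not given in the sources used here. The share of the Ddit3 reads that belongs to Mars or to the second entry was not tested. Mars itself was lower in Veh with TMM, with a log2 fold change of −0.14 (adjusted p = 0.0061). With library totals alone all 12 tRNA synthetase genes of the wider list, Mars among them, were higher, so its direction turns with the scaling. Atf4 rose least in this arm. It stood at 89.9, 94.2, 94.7, 103 and 106 CPM in WT and at 107 to 143 (median 125) CPM in Veh, a narrow gap between groups that did not overlap, with a log2 fold change of 0.35 (SE 0.08, adjusted p = 0.00028).

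Hspa5 encodes BiP, the main HSP70 chaperone of the ER lumen and the usual gauge of the unfolded protein response. WT mice had 404, 423, 538, 606 and 799 CPM and Veh mice 386 to 987 (median 483) CPM. Both groups spread widely and overlapped, and the interval of the log2 fold change ran from −0.46 to 0.45 (95%). Dnajb9 encodes ERdj4, a co-chaperone of BiP that restrains IRE1. Its levels were 37.8, 43.7, 46.5, 48.8 and 56.7 CPM in WT and 35.6 to 58.02 (median 45.4) CPM in Veh, with a log2 interval from −0.27 to 0.22. Xbp1 gave 136, 157, 173, 220 and 228 CPM in WT and 182 to 221.81 (median 198) CPM in Veh, with a log2 interval from −0.11 to 0.35. For these 3 genes the call depends on the scaling: with library totals alone all 3 were called higher in Veh, with log2 fold changes of 0.58 for Hspa5, 0.56 for Dnajb9 and 0.71 for Xbp1, all near or below the shift of the median gene.

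Sdf2l1 encodes an ER lumen protein that works with BiP and ERdj co-chaperones. It was at 7.48, 10.9, 11.6, 20.3 and 20.9 CPM in WT and 12.8 to 40.8 (median 20.6) CPM in Veh. The 2 highest WT mice lay within the Veh range. Its call as higher, with a log2 fold change of 0.68 (SE 0.26, adjusted p = 0.025), rested on single mice: without Veh A19 the log2 fold change was 0.43 with an adjusted p of 0.097, and the call was also lost without WT A3, A14 or A18.

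Herpud1 encodes an ER membrane protein that organises the HRD1 degradation complex, and it is a known target of both ATF6 and ATF4. WT mice stood at 247, 253, 280.3, 298 and 386 CPM and Veh mice at 104 to 184 (median 129) CPM. Every Veh mouse lay below every WT mouse. The log2 fold change was −1.09 (SE 0.16, adjusted p = 3.2e-06), and with library totals alone it was still negative, at −0.50. Herpud1 was thus the 1 gene of the 10 that went against the ATF4 targets in disease. Its promoter window held the ATF and C/EBP element, as did the windows of Trib3, Chac1 and Asns.

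**Figure D2:**
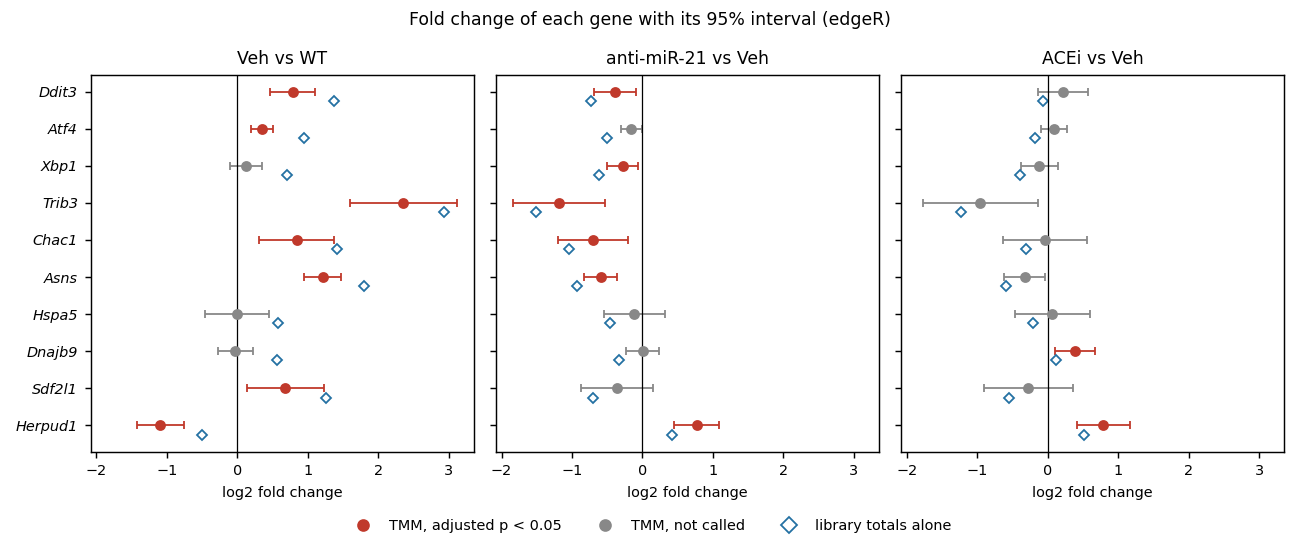
Log2 fold change of the 10 genes with 95% intervals for Veh against WT and for each treatment against Veh (circles, edgeR with TMM, red where the adjusted p was under 0.05), and the value with library totals alone (open diamonds). Trib3 lay at 2.36 and Herpud1 at −1.09 in Veh vs WT, and the diamonds are shifted against the circles by the same amount for all genes of a comparison.

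The libraries came from 2 flow cells, as the run codes in the labels give them. All 7 genes called between Veh and WT differed in the same direction within flow cell A (3 WT, 4 Veh) and within flow cell B (2 WT, 2 Veh). The difference in mean log2 CPM was 2.26 and 2.33 for Trib3, 1.40 and 0.88 for Asns, 1.05 and 0.57 for Chac1, 0.99 and 0.43 for Ddit3, 0.45 and 0.15 for Atf4, 0.89 and 0.33 for Sdf2l1, and −1.23 and −0.87 for Herpud1, in flow cells A and B.

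The comparison of anti-miR-21 with Veh asks whether the inhibitor moved these genes. Trib3, Chac1 and Asns were lower under anti-miR-21, at 0.440, 0.616 and 0.662 of the Veh level, Ddit3 and Xbp1 were lower by less, and Herpud1 was 1.70-fold higher. The call was lower for 5 of the 10 genes, where 30.5% of all genes tested were lower, and higher for 1, where 28.8% were. For 3 of the 10 the groups were fully apart, as for 36.4% of all genes. The median log2 fold change was −0.32 over the 10 genes and −0.04 over all genes. Without the 4 libraries high in adipocyte markers the lower calls fell from 5 to 1, Asns (−0.45, adjusted p = 0.020), where 21.3% of all genes were lower, and Herpud1 was still called higher (0.62, adjusted p = 0.013). Trib3, Chac1, Ddit3 and Xbp1 were then at −0.72, −0.46, −0.37 and −0.26, with adjusted p values of 0.091, 0.22, 0.13 and 0.14. With fewer mice in that fit, the part of the adipocyte signal in these losses was not tested.

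Trib3 in anti-miR-21 mice ran from 0.969 to 2.51 (median 2.05) CPM, below all Veh mice. The log2 fold change was −1.18 (SE 0.31, adjusted p = 0.0028), and without Veh A9 it was −0.83. Asns ran from 12.7 to 15.5 (median 14.1) CPM, also below all Veh mice, with a log2 fold change of −0.60 (SE 0.12, adjusted p = 0.00018). It stayed above WT, where the log2 fold change was 0.62 (adjusted p = 0.00056). Chac1 ran from 1.27 to 1.82 (median 1.57) CPM, below the lowest Veh mouse, with a log2 fold change of −0.70 (adjusted p = 0.017). That call was lost without Veh A9, at an adjusted p of 0.069.

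Ddit3 in anti-miR-21 mice ran from 10.04 to 15.6 (median 12.4) CPM and overlapped Veh. Its log2 fold change of −0.39 (adjusted p = 0.022) lost its call without any 1 of 5 mice, with the highest adjusted p of 0.082 without Veh A19. Xbp1 ran from 151 to 184 (median 160.3) CPM and just overlapped Veh at its upper end. Its log2 fold change of −0.28 (adjusted p = 0.025) lost its call without any 1 of 4 mice, with the highest adjusted p of 0.079, again without Veh A19. Atf4 ran from 100.4 to 124 (median 113) CPM and missed the threshold, with a log2 fold change of −0.16 (adjusted p = 0.058). Of its 13 other fits, not counting those that left out a single mouse, 9 called it lower, but these fits reuse the same mice. Among the 9 was the fit with library totals alone, where the median gene was at −0.38. Over these 13 fits its log2 fold change ran from −0.51 to −0.05, and the highest adjusted p was 0.59.

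Herpud1 in anti-miR-21 mice ran from 165 to 281 (median 244) CPM. Only the lowest of these values, in mouse A8, fell within the Veh range. The log2 fold change was 0.77 (SE 0.15, adjusted p = 0.00023). Against WT it was −0.33 (adjusted p = 0.10), a difference that missed the threshold with an interval from −0.66 to 0.005. Hspa5 ran from 397 to 613 (median 503) CPM, Dnajb9 from 39.6 to 55.7 (median 44.6) CPM and Sdf2l1 from 14.2 to 20.1 (median 17.6) CPM, all overlapping Veh, and none was called. All 6 called genes kept their direction within both flow cells, although flow cell B held only 1 anti-miR-21 mouse and 2 Veh mice. There the difference in mean log2 CPM was −0.52 for Trib3, −0.23 for Asns, −0.80 for Chac1, −0.18 for Ddit3, −0.34 for Xbp1 and 0.43 for Herpud1, against −1.33, −0.71, −0.63, −0.50, −0.29 and 0.86 in flow cell A.

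The comparison of ACEi with Veh asks the same of ramipril, against the same Veh mice, so the results of the 2 treatments are not independent. Herpud1 was again 1.73-fold higher than in Veh and Dnajb9 was 1.31-fold higher, while Ddit3, Atf4 and Chac1 were not called. Higher calls were made for 2 of the 10 genes, where 21% of all genes tested were higher, and lower calls for none, where 19.1% were. For 2 of the 10 the groups were fully apart, as for 38.6% of all genes. At an unadjusted p under 0.05, 4 of the 10 genes passed by edgeR, where 8513 of all 17622 genes tested did. DESeq2 called 1 of the 10 lower, Trib3. The median log2 fold change was 0.01 over the 10 genes and −0.05 over all genes. Without the 4 libraries high in adipocyte markers 2 of the 10 were again higher, Herpud1 (0.62, adjusted p = 0.035) and Atf4 (0.24, adjusted p = 0.048), while Dnajb9 lost its call (0.29, adjusted p = 0.16), where 17.6% of all genes were higher and 9.09% lower.

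Herpud1 in the ACEi mice was at 199.5, 243 and 269 CPM, above all Veh mice, with a log2 fold change of 0.79 (SE 0.18, adjusted p = 0.0019). Dnajb9 was at 55.9, 56.8 and 67.5 CPM, where only Veh A19 reached the ACEi range. Its log2 fold change of 0.39 (SE 0.14, adjusted p = 0.028) fell to 0.30 with an adjusted p of 0.16 without ACEi A13. It also lost its call with library totals alone and with upper quartile scaling. Within flow cells A and B the differences in mean log2 CPM were 0.90 and 0.69 for Herpud1 and 0.34 and 0.41 for Dnajb9, with 1 ACEi mouse in A and 2 in B.

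Trib3 in the ACEi mice was at 1.90, 1.93 and 2.56 CPM, below all Veh mice, yet its log2 fold change of −0.96 (SE 0.39) missed the threshold, with an adjusted p of 0.056. Asns was at 14.5, 15.9 and 20.1 CPM and overlapped Veh, with a log2 fold change of −0.33 (adjusted p = 0.071). Both were called lower with library totals alone and with upper quartile scaling. Ddit3 was at 15.5, 19.5 and 21.6 CPM, Atf4 at 127, 132 and 139 CPM and Chac1 at 1.64, 2.65 and 3.13 CPM. The ACEi mice overlapped Veh for all 3, and the log2 intervals of the difference ran from −0.14 to 0.57, from −0.09 to 0.27 and from −0.64 to 0.56. Xbp1 was at 160.4, 190.0 and 199.96 CPM, Hspa5 at 488, 602 and 643 CPM and Sdf2l1 at 16.1, 18.4 and 22.01 CPM, all overlapping Veh and none called.

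In the direct comparison of anti-miR-21 with ACEi, neither direction held a call among the 10 genes by edgeR, where 0.363% of all genes tested were higher and 0.221% lower under anti-miR-21. At an unadjusted p under 0.05, 4 of the 10 genes passed, where 2562 of all 17622 genes tested did. They were Ddit3, Dnajb9, Atf4 and Chac1, with log2 fold changes of −0.60, −0.38, −0.25 and −0.66, all lower under anti-miR-21. DESeq2 called 1 of them, Ddit3. For Atf4 and Dnajb9, 2 of the 10, the treatments were fully apart, as for 8.99% of all genes. A difference between the treatments was thus not shown for any of these genes by edgeR after adjustment, although the unadjusted interval of Ddit3 ran from −0.96 to −0.25.

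Against WT, genes of the ATF4 and CHOP arm were still higher under both treatments. Of the 10 genes, 4 were higher under anti-miR-21 than in WT, namely Trib3, Asns, Ddit3 and Atf4, where 23.9% of all genes tested were higher, and none was lower, where 19.8% were. In ACEi mice 6 were higher than in WT, those 4 with Chac1 and Dnajb9, where 25.2% of all genes were higher, and none was lower, where 22.5% were. At an unadjusted p under 0.05 the same numbers, 4 and 6, passed by edgeR, where 8978 and 9500 of all 17622 genes tested did. The log2 fold changes against WT were 1.17 under anti-miR-21 and 1.40 under ACEi for Trib3, 0.62 and 0.89 for Asns, 0.39 and 0.996 for Ddit3, and 0.19 and 0.44 for Atf4. The adjusted p values of Ddit3 and Atf4 under anti-miR-21 were 0.044 and 0.045, and each was lost in several fits that left out a mouse or added the flow cell as a term. Ddit3 missed the threshold without the 4 libraries high in adipocyte markers (0.42, adjusted p = 0.059). Under ACEi the adjusted p values of Chac1 and Dnajb9 were 0.034 and 0.041, and each lost its call in 5 of the 8 fits that left out a mouse, with values up to 0.18 without ACEi A23 and 0.17 without ACEi A13.

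Per length, in FPKM (fragments per kilobase of exon, scaled by the mapped total of each library), the order of levels ran over a wide range in Veh. Hspa5 led at 270.2 ± 116 (SD, n = 6), followed by Xbp1 at 108 ± 10.0, Atf4 at 103 ± 13.8 and Herpud1 at 90.3 ± 18.96. The spreads of these last 3 over the mice overlapped. All genes were measured in the same mice, and their order within each mouse was not tested. Dnajb9 at 30.7 ± 5.47, Sdf2l1 at 25.7 ± 11.7 and Ddit3 at 21.9 ± 4.83 formed the next step, with spreads that also overlapped. Asns stood at 13.5 ± 2.15, and Trib3 at 2.52 ± 1.33 and Chac1 at 2.01 ± 0.61 were lowest and within each other's spread. In WT the order began with Hspa5 at 179 ± 54.5 (n = 5) and Herpud1 at 128 ± 20.1, ahead of Xbp1 at 65.8 ± 14.3 and Atf4 at 53.0 ± 3.87, and ended with Trib3 at 0.329 ± 0.171. Herpud1 was therefore at rank 2 in WT and rank 4 in Veh, and it was at rank 2 again under anti-miR-21 at 121 ± 24.0 and under ACEi at 128 ± 14.6. The FPKM entry of Ddit3 is marked by the authors' table as overlapping another gene.

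Within groups, some of the 10 genes varied together and others did not. The likeness was measured as Pearson's r of log2 CPM over the 20 mice after the group means were removed, which describes these libraries and carries no p, and all points share the scaling of their library. Its error is the jackknife SE over mice, which ran from 0.098 to 0.43 over the pairs, so most weak values are not told apart from 0. Hspa5 and Sdf2l1 had r = 0.83 (SE 0.12), which was 0.74 without Veh A19. Dnajb9 and Herpud1 had r = 0.81, Xbp1 and Dnajb9 0.67, Hspa5 and Dnajb9 0.65 and Xbp1 and Hspa5 0.64. These 5 values had SEs from 0.098 to 0.19. Hspa5 and Herpud1 had 0.59 (SE 0.22), and Xbp1 and Herpud1 only 0.39 (SE 0.27). Sdf2l1 had only 0.26 with Dnajb9 and 0.23 with Herpud1, which were 0.002 and −0.009 without Veh A19. Among the ATF4 and CHOP genes, Chac1 and Asns had r = 0.64, Trib3 and Chac1 0.54, Trib3 and Asns 0.54, and Ddit3 and Atf4 0.55, with SEs from 0.17 to 0.23. Ddit3 had only 0.04 with Trib3, 0.095 with Chac1 and 0.21 with Asns (SEs from 0.285 to 0.345), and 0.45 with Herpud1 (SE 0.24). With these SEs the values of Ddit3 with these genes are not told apart. Atf4 had 0.25 with Trib3, 0.225 with Chac1 and 0.45 with Asns, with SEs from 0.23 to 0.28. The lowest value was −0.43, for Asns and Dnajb9 (SE 0.21), next to −0.42 for Xbp1 and Asns (SE 0.26). With the flow cell removed as well as the group, these were −0.49 and −0.62.

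**Figure D3:**
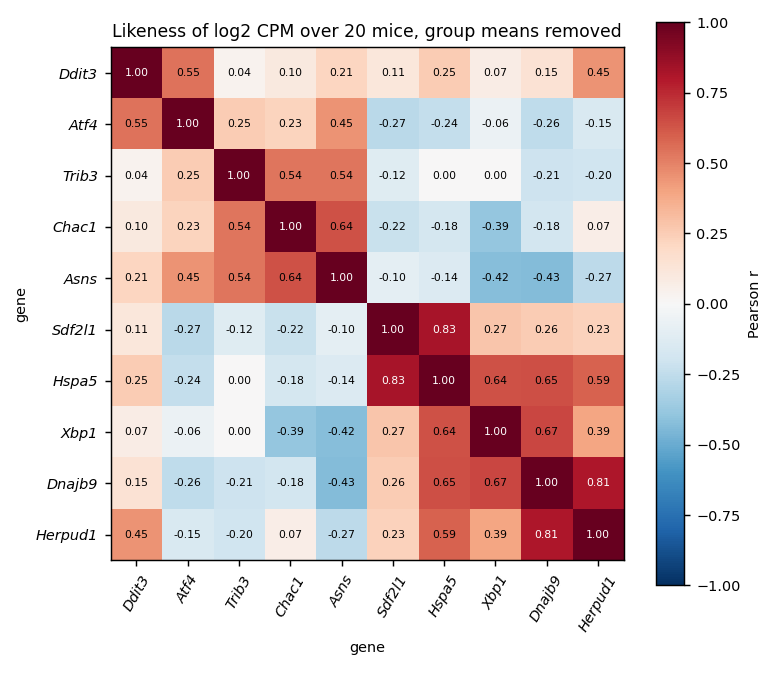
Pearson's r between the 10 genes over 20 mice, from log2 CPM with the group means removed, on a colour scale from −1 to 1. Warm blocks join Trib3, Chac1 and Asns (r from 0.54 to 0.64) and Hspa5, Xbp1, Dnajb9 and Herpud1 (r from 0.39 to 0.81), with Sdf2l1 close to Hspa5 (r = 0.83).

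Of 15327 protein-coding genes, those most like Hspa5 over the 20 mice were Pdia4 (r = 0.98), Hyou1 (0.96) and Hsp90b1 (0.94), which encode an ER disulfide isomerase, an ER HSP70-type protein and the ER HSP90. Those most like Sdf2l1 were Derl3 (0.87), Hsp90b1 (0.87) and Hspa5 (0.83). The nearest genes of the other members were in none of the lists used here. They were Acrbp (0.85), Rps12-ps3 (0.79) and Avil (0.77) for Ddit3, Use1 (0.84) and Trip6 (0.83) for Atf4, and Rnase4 (0.83), Txndc5 (0.80) and Ikzf1 (0.80) for Xbp1. For the targets they were Pias3 (0.86), Itgb3 (0.84) and Akap12 (0.84) for Trib3, Blm (0.73), Higd1b (0.71) and Thra (0.71) for Chac1, and Fyb2 (0.83), Mfsd6l (0.81) and Gstm6 (0.80) for Asns. They were Narf (0.86), Trpc4ap (0.83) and Dusp11 (0.83) for Dnajb9 and Gabpa (0.86), Dcaf1 (0.85) and Trappc10 (0.85) for Herpud1. The best of so many genes over 20 mice is high by selection.

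The Veh mouse A19 stood apart most for the chaperones Hspa5 and Sdf2l1. It had 987 CPM of Hspa5 against 386 to 570.5 CPM in the other Veh mice, and 40.8 CPM of Sdf2l1 against 12.8 to 25.9 CPM. Both were 2.12 times the mean of the other Veh mice. It was also the highest Veh mouse for Herpud1 (184 CPM against at most 155 CPM), Dnajb9 (58.0 against at most 47.7 CPM), Ddit3 (20.7 against at most 17.9 CPM) and Xbp1 (221.8 against at most 205.9 CPM), at 1.43, 1.34, 1.34 and 1.14 times the mean of the others. Its Trib3, Asns and Atf4 were within the range of the other Veh mice, and its Chac1 was the lowest of the group at 1.90 CPM. The summed markers of B and plasma cells, cells that carry a large ER, were 157 CPM in A19 and 102 to 177 CPM in Veh as a whole. That is 1 of 15 marker lists, and the part of cell makeup in the levels of A19 was not tested.

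The wider pathway was read from 131 further genes in 13 roles, of which 130 were tested. In Veh 42 of them (32.3%) were higher than in WT and 59 (45.4%) lower, where 39% and 34% of all genes tested were, and these shares are also the background of the counts by role. There were 41 higher and 51 lower without the 4 libraries high in adipocyte markers, where 35.5% and 32.2% of all genes were. The list of partner and related factors of ATF4 and CHOP holds bZIP factors and also Nupr1, which is not a bZIP factor. These factors were higher in 7 of 9 and lower in none (median log2 fold change 0.79). Atf3, an early stress factor, rose from 1.14 ± 0.24 to 26.8 ± 17 CPM (SD, log2 fold change 4.55, adjusted p = 5.7e-10), and Nupr1 from 14.3 ± 12 to 89.5 ± 17 CPM (2.64). The death genes downstream of CHOP were higher in 6 of 6, led by Casp12 (3.28) and Bbc3 (2.41), which encode a caspase of the ER and the BH3 protein PUMA.

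Amino acid transporters were higher in 6 of 9 and lower in 2 (median 1.10). Slc7a11, the cystine carrier, and Slc7a5, a carrier of large neutral amino acids, rose by log2 fold changes of 2.92 and 2.79, while Slc1a4 and Slc6a9 fell by 1.22 and 0.64. The list of serine, glycine, proline and one-carbon synthesis was split, with 5 of 9 higher and 4 lower: Aldh18a1 and Pycr1, enzymes of proline synthesis, rose by 2.54 and 1.99, and Shmt2 and Shmt1, the serine hydroxymethyltransferases, fell by 2.46 and 0.97. Other ATF4-responsive genes were higher in 5 of 8 and lower in 2. Stc2, a secreted glycoprotein, rose by 2.81, and Cth, which makes cysteine, fell by 2.58. Fgf21 had no count in any WT mouse and 2 to 20 counts in the Veh mice, which puts it at least 8.72-fold higher against a floor of 3 counts over the WT group, and with Fgf21 at that bound the median of the list was still 1.15.

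In the lists of ER quality control more genes were called lower than higher. ER chaperones and foldases were lower in 9 of 18 and higher in 1, ER-associated degradation genes lower in 12 of 14 and higher in 1, and translocation and ER to Golgi genes lower in 5 of 12 and higher in 2, so that 8 of the chaperones, 1 of the degradation genes and 5 of the transport genes were not called. Sil1, the exchange factor of BiP, fell by 1.004 and P4hb, a disulfide isomerase, by 0.81, while Dnajc10 rose by 0.32. Edem1 and Edem3, which sort glycoproteins for degradation, fell by 0.97 and 0.76, and Ube2j1 rose by 0.18. Sec23b fell by 1.26 and Lman1 by 0.51, and Sec24d and Sec61a1 rose by 0.51 and 0.21. These 3 directions turn with the scaling: without TMM, by library totals, 10 of the 18 chaperones were higher and 3 lower, 5 of the 14 degradation genes higher and 2 lower, and 9 of the 12 transport genes higher and 1 lower.

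Aminoacyl-tRNA synthetases, which ATF4 can induce, were lower in 6 of 12 and higher in 3, with Eprs and Aars lower by 0.39 and 0.34 and Lars and Cars higher by 0.30 and 0.18, but all 12 were higher with library totals alone. The sensors and eIF2alpha kinases were higher in 3 of 9 and lower in 2. Eif2ak2 (PKR) rose by 0.90 and Eif2ak3 (PERK) by 0.34, and Eif2ak1 (HRI) fell by 0.75 and Atf6 by 0.17, and with library totals alone 8 of the 9 were higher, Atf6 among them, and 1 lower. The eIF2alpha list holds genes of eIF2alpha, of its phosphatase and of eIF2B, the exchange factor of eIF2. In it 5 of 8 genes were lower and 1 higher. Ppp1r15a (GADD34), a CHOP target, rose by 0.41, while Ppp1r15b and the eIF2B gene Eif2b5 fell by 0.56 and 0.41. With library totals alone none of the 8 was lower and 7 were higher. Genes of the cytosolic heat shock list were lower in 5 of 9 and higher in 2. Hspb1 was higher by 2.55 and Hmox1, which encodes a haem oxygenase and not a cytosolic chaperone, by 0.67. Hsph1 and Hsp90aa1 were lower by 1.20 and 0.73. But with library totals alone 2 were higher and 1 lower, and without the 4 libraries high in adipocyte markers 2 were higher and 2 lower. All 7 mitochondrial chaperones and proteases were lower, also with library totals alone, led by Hspd1 (−1.84) and Clpx (−1.69).

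**Figure D4:**
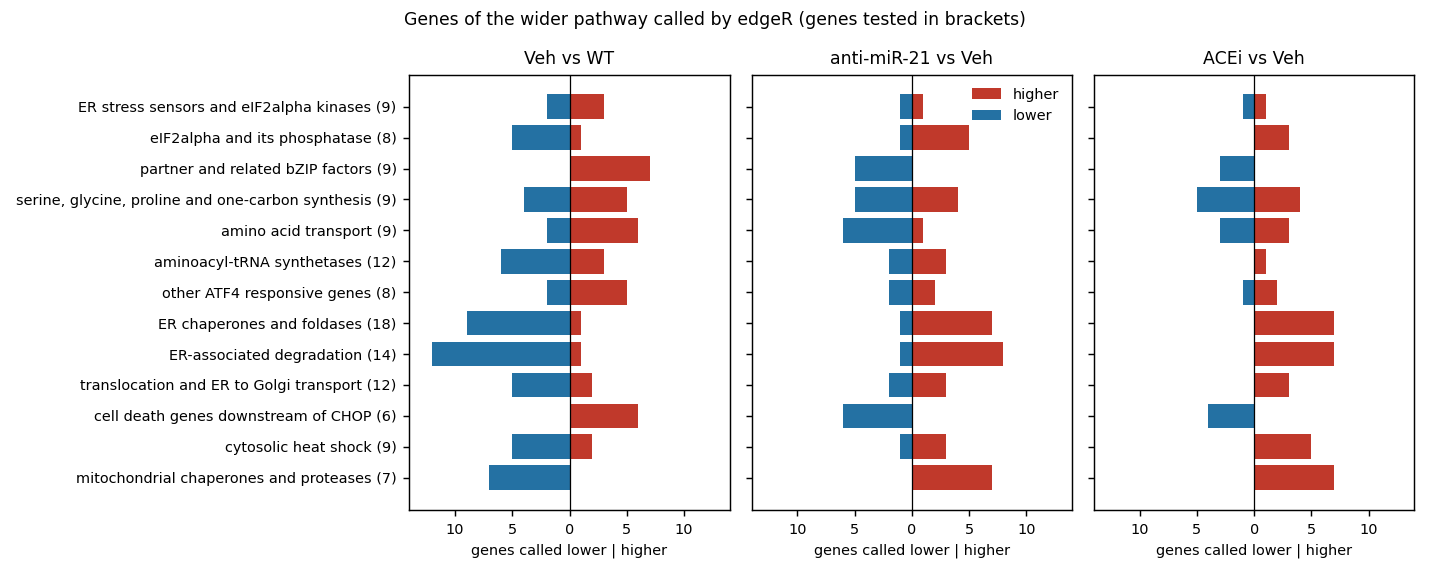
Number of genes called higher (red, to the right) or lower (blue, to the left) by edgeR in each of the 13 roles of the wider pathway, with the genes tested in brackets, for Veh against WT and for each treatment against Veh. The death genes were higher in 6 of 6 in Veh and lower in 6 of 6 under anti-miR-21, and the 7 mitochondrial genes showed the opposite.

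Under anti-miR-21, 44 of the 130 genes (33.8%) were higher than in Veh and 33 (25.4%) lower, where 28.8% and 30.5% of all genes tested were. There were 35 higher and 24 lower without the 4 libraries high in adipocyte markers, where 25.1% and 21.3% of all genes were. With library totals alone the counts of higher and lower genes were 0 and 8 of the 9 partner and related factors and 0 and 6 of the 6 death genes. They were 1 and 7 of the 9 transporters and 2 and 5 of the 9 genes of serine, glycine, proline and one-carbon synthesis. For the 8 other ATF4-responsive genes they were 2 and 4, and for the 7 mitochondrial genes 7 and 0. With TMM the partner and related factors were lower in 5 of 9, with Atf3 lower by a log2 fold change of 1.12 and Nupr1 by 1.07. The death genes were lower in 6 of 6, with Casp12 at −1.32 and Bbc3 at −1.06. Amino acid transporters were lower in 6 of 9 and higher in 1, with Slc7a11 at −1.79, Slc7a5 at −1.71 and Slc1a4 at 0.69. Of serine, glycine, proline and one-carbon synthesis 5 of 9 fell and 4 rose, among them Aldh18a1 (−1.22), Phgdh (−1.12), Shmt2 (1.79) and Shmt1 (0.81). Of the other ATF4-responsive genes, 2 of 8 fell, Ddit4 (−1.43) and Gdf15 (−1.31), and 2 rose, Cth (1.99) and Vldlr (0.62). All 7 mitochondrial genes were higher, with Clpx at 1.47 and Hspd1 at 1.34.

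ER chaperones were higher in 7 of 18 and lower in 1 under anti-miR-21, with Sil1 at 0.63, Fkbp2 at 0.53 and Dnajc10 at −0.26, and degradation genes higher in 8 of 14 and lower in 1, with Derl1 at 0.49 and Ube2j1 at −0.15. With library totals alone these counts turned to 2 higher and 8 lower of the 18 and to 1 higher and 6 lower of the 14. Transport genes were higher in 3 of 12 and lower in 2 (Sec23b 0.72, Lman1 0.20, Sec24d −0.33, Sec61a1 −0.24), synthetases higher in 3 of 12 and lower in 2 (Eprs 0.27, Mars 0.14, Lars −0.17, Wars −0.16), and both were lower in nearly all members with library totals alone. Of the sensors, Eif2ak1 rose by 0.47 and Eif2ak2 fell by 0.34. In the eIF2alpha list 5 of 8 genes rose, led by Ppp1r15b (0.40) and Eif2b5 (0.28), and Ppp1r15a fell by 0.27. But without TMM, by library totals, 8 of the 9 sensors and 4 of the 8 genes of the eIF2alpha list were called lower. Eif2b5 then turned to −0.06. Heat shock genes were higher in 3 of 9 and lower in 1, with Hsph1 at 0.90, Hsp90aa1 at 0.37 and Hspb1 at −1.23, but with library totals alone 1 was higher and 2 lower, and without the 4 libraries high in adipocyte markers 1 was higher and 1 lower.

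Under ACEi, 43 of the 130 genes (33.1%) were higher than in Veh and 17 (13.1%) lower, from 3 mice, where 21% and 19.1% of all genes tested were. Leaving out the 4 libraries high in adipocyte markers gave 28 higher and 9 lower, where 17.6% and 9.09% of all genes were, and the higher calls fell to 3 of the 18 chaperones and 1 of the 9 heat shock genes. The partner and related factors were lower in 3 of 9, Nupr1 by 0.95 and Cebpb by 0.83 among them. The death genes were lower in 4 of 6, with Bbc3 at −1.10 and Casp12 at −0.80. Transporters were lower in 3 of 9 and higher in 3 (Slc7a5 −1.32, Slc7a1 −0.97, Slc1a4 0.60, Slc6a9 0.46), which became 6 lower and 1 higher with library totals alone, and the genes of serine, glycine, proline and one-carbon synthesis were lower in 5 of 9 and higher in 4 (Phgdh −0.81, Aldh18a1 −0.80, Shmt2 1.41, Psat1 0.82). Cth rose by 1.49 and Vldlr by 0.46, and Ddit4 fell by 1.01. The ER chaperones were higher in 7 of 18, with P4hb at 0.47 and Sil1 at 0.42, and the degradation genes in 7 of 14, with Edem1 at 0.57 and Edem3 at 0.52, while with library totals alone 1 chaperone was higher and 2 lower and 2 degradation genes were higher and 2 lower.

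Of the remaining roles under ACEi, Sec23b rose by 0.71 and Ssr3 by 0.23, Eprs by 0.16, Eif2ak1 by 0.35, Ppp1r15b by 0.30 and Eif2b5 by 0.20, while Eif2ak2 fell by 0.29. Of these, Ssr3, Eprs and Eif2b5 turned negative with library totals alone (−0.04, −0.11 and −0.07). By that scaling the counts of higher and lower genes were 0 and 6 of the 9 sensors and 0 and 2 of the 8 genes of the eIF2alpha list. They were 0 and 9 of the 12 synthetases and 1 and 6 of the 12 transport genes. With TMM these counts were, in the same order, 1 and 1, 3 and 0, 1 and 0, and 3 and 0. The heat shock genes were higher in 5 of 9, with Hsph1 at 0.90 and Dnajb1 at 0.76, against 1 higher and 1 lower with library totals alone, and the mitochondrial genes in 7 of 7, with Hspd1 at 1.19 and Clpx at 1.10. In the direct comparison of the treatments none of the 130 genes was called by edgeR. At an unadjusted p under 0.05, 16 of them passed, where 2562 of all 17622 genes tested did. DESeq2 called 5, Casp12, Hmox1, Mthfd1l, Pmaip1 and Ube2j1, which are named here after their values were seen.

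Markers of many cell types moved with the groups. In Veh vs WT, 39% of all genes tested were higher and 34% lower. The 6 proximal tubule markers were all lower in Veh, and their summed level was 32432 to 42139 CPM in WT, 1423 to 7931 CPM in Veh, 15371 to 32033 CPM under anti-miR-21 and 17530.0 to 20928 CPM under ACEi. The 6 macrophage markers were all higher in Veh, at 139 to 152 CPM in WT, 809 to 994 CPM in Veh, 347 to 522 CPM under anti-miR-21 and 449 to 535 CPM under ACEi. Markers of B and plasma cells were higher in 4 of 6, with sums of 20.8 to 37.2 CPM in WT, 102 to 177 CPM in Veh, 30.1 to 65.9 CPM under anti-miR-21 and 48.2 to 99.6 CPM under ACEi. Markers of fibroblasts, tubule injury and T cells were higher in Veh in 5 of 5 each, and erythroid markers were lower in 4 of 4. Of the 5 pancreas markers, none was tested and all 5 had at most 3 counts in every WT, anti-miR-21 and ACEi mouse. None of the markers of proximal tubule, macrophages or B and plasma cells was at 0. The part of these shifts in cell makeup in the differences of the stress genes was not tested.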

How the data were processed

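RNA-seq of total kidney RNA was deposited for the 20 mice as a table of estimated counts per Ensembl gene and a table of FPKM. The authors aligned paired-end reads to GRCm38 with the OSA aligner of OmicSoft Studio, and the deposited expected counts were not normalized, with 21.9% of positive values not whole (tolerance 0.01). They were rounded before testing. The FPKM values deposited by the authors were used for levels per length and for alternative tests, and 3 FPKM columns that match no labelled mouse were not used. Authors' mapped alignments were between 70004591 and 73294858 per library.

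Counts were filtered with filterByExpr (minimum count 10), scaled by TMM and fitted with edgeR 4.0.16 (quasi-likelihood test, R 4.3.3) over all 20 mice and 4 groups, with Benjamini-Hochberg adjustment over 17622 genes and a threshold of 0.05. Alternatives were DESeq2 1.42.0, limma 3.58.1 on log2(FPKM + 1) and log2(FPKM + 0.1), other scalings and filters, flow cell terms and leaving out each mouse. limma on FPKM divided by the TMM factors, within-flow-cell differences, the likeness without Veh A19 and a fit without the 4 libraries whose summed adipocyte markers exceeded 50 CPM were added after seeing the data. The scripts were tested on simulated data. p-values set a difference between groups against the spread between these mice, which in the edgeR fit was estimated over all 4 groups together.

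The 10 genes, the 131 genes of the wider pathway and the markers were chosen with earlier results of these data known. All 10 genes are named. In each role and comparison with Veh or of Veh with WT, the 2 genes with the largest change in each direction past the threshold are named, and the 3 protein-coding genes most like each of the 10, except that some genes these rules select are not reported here. Names for the counts came from GENCODE annotation on the same build, and 98.8% of gene IDs had a symbol. Promoter windows are from RefSeq, GRCm38.p6, and all 10 genes matched.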

Additional observations from a re-analysis of the deposited data

Results flagged for a closer look

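Of 30 sets of values (10 genes in WT, Veh and anti-miR-21), 2 held a mouse whose gap to its nearest neighbour took up more of the range than Dixon's limit allows. Chance flags about 1 in 20 such sets. Trib3 in Veh mouse A9 was 8.40 CPM, with a gap of 0.838 of the range, and without this mouse the log2 fold change of anti-miR-21 vs Veh was −0.83 in place of −1.18, still called. A9 is also 1 of the 4 libraries high in adipocyte markers, at 78.5 CPM, and without all 4 it was −0.72, not called (adjusted p = 0.091). Hspa5 in Veh mouse A19 was 987 CPM, with a gap of 0.693 of the range, and without it the log2 fold change of Veh vs WT was −0.25, still not called.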

How the results depend on the processing

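Of 1334 values of the 10 genes under other settings, 1227 kept their direction and side of the threshold, or stayed uncalled, 64 lost a call, 43 gained one and none of the called values reversed. With library totals alone, 8 genes were lower in anti-miR-21 vs Veh, and 1 was higher and 3 lower in ACEi vs Veh. For ACEi vs Veh, upper quartile scaling gave 1 higher and 2 lower, limma on log2(FPKM + 1) and on log2(FPKM + 0.1) each gave 1 higher and 3 lower, and DESeq2 gave 1 lower. DESeq2 gave 1 lower in anti-miR-21 vs ACEi. For anti-miR-21 vs WT, RLE scaling, the flow cell term and limma on FPKM divided by the TMM factor each left 2 higher, and flow cell A alone gave 1 higher and 1 lower. Without the 4 libraries high in adipocyte markers, 1 gene was lower in anti-miR-21 vs Veh. The cause of these changes was not tested. Leaving out 1 mouse at a time, higher and lower calls ranged from 5 to 6 and 1 to 1 in Veh vs WT, 1 to 1 and 3 to 6 in anti-miR-21 vs Veh, 1 to 2 and 0 to 2 in ACEi vs Veh, 0 to 0 for both in anti-miR-21 vs ACEi, 2 to 4 and 0 to 1 in anti-miR-21 vs WT, and 4 to 6 and 0 to 0 in ACEi vs WT. The lower calls of anti-miR-21 vs Veh fell to 3 without Veh A1, A9 or A19, and the higher calls of ACEi vs Veh fell to 1 without ACEi A13, while lower calls rose to 2 without Veh A20 and to 1 without ACEi A23. The higher calls of anti-miR-21 vs WT fell to 2 without WT A6 or anti-miR-21 A2, A10, A12 or A15, and 1 lower call appeared without WT A17. Trib3 was not tested when 10 counts were asked in every mouse, and flow cell A alone held too few ACEi mice to fit. No paired analysis was possible because the mice share no replicate numbers. With 3 ACEi mice and 9 to 33 counts of Trib3 in WT, the intervals for these values are wide.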
